A study of Mus musculus with 185 samples.

Results

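The genes of the respiratory chain were followed in single Langerhans cells (LCs) of mouse epidermis. Members were the rows of the count table whose symbols name subunits or assembly factors of complexes I to V, that is mt-Nd, mt-Co, mt-Atp and mt-Cytb genes, Nduf, Uqcr, Cox4 to Cox8 and Atp5 genes, and Sdha, Sdhb, Sdhc and Sdhd, with rows named as pseudogenes by the suffix -ps left out. This gave 110 of 45661 genes, 97 encoded in the nucleus and 13 in the mitochondrion (mt- genes). Of the nuclear members, 93 are protein-coding in GENCODE M21 and 4 (Cox6c2, Ndufa11b, Ndufb4c and Ndufs6b) are annotated there as processed pseudogenes.

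The cells came from bone marrow chimeras (BMC): lethally irradiated B6 CD45.1 Cd207DTR mice, which carry the diphtheria toxin (DT) receptor under control of Cd207, were given CD45.2 wild-type bone marrow and then a low dose of DT (5 ng per g of body weight), and epidermal LCs were index sorted 2 months later. All cells of both origins therefore came from irradiated and DT-treated hosts, and the host cells are LCs that DT at this dose had spared. The eLCs were irradiated with the host and carry Cd207DTR, whereas the moLCs come from wild-type marrow given after irradiation. A difference between origins therefore cannot be told apart from one of irradiation or of genotype. Cells labelled E (CD45.1, host) are embryo-derived LCs (eLCs) and cells labelled M (CD45.2, donor) are monocyte-derived LCs (moLCs). Cells with over 5% of their reads on mt- genes were left out, as in the methods of the study. This removed 3 moLCs and kept 182 cells, namely 67 moLCs and 29 eLCs on plate 1 and 36 moLCs and 50 eLCs on plate 2. Since the labels do not tie cells to animals and give neither age nor sex, an origin counts as 1 sample, no test was made between origins, and the intervals given cover counting error only.

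The kept cells held 432614 to 4525429 reads on genes, and 2439 to 7212 genes with a read. The median cell had 4026 genes with a read among moLCs and 4488 among eLCs, and after thinning every cell to 2052512 reads it was 4030 and 4425. Levels of 6 LC markers (Cd207, Epcam, Cd74, H2-Aa, H2-Ab1 and Mfge8) were summed per cell. They reached 11006 to 311980 counts per 1000000 reads (CPM) per moLC and 99309.8 to 279956 CPM per eLC. The sort had asked for MHCII (H2-Aa and H2-Ab1) and CD326 (Epcam), so this sum is no independent check of LC identity. Of these markers, Cd207 differed most between the origins, with 26237.5 CPM over all moLCs against 2159 over all eLCs. Its reads are part of the totals by which every CPM below is scaled. No Cd207 read was found in 1 kept cell, a moLC of plate 1. Keratinocyte markers had a read in 25 moLCs and 9 eLCs, with medians of 0 and highest summed levels of 542 and 95.3 CPM. T cell, melanocyte and monocyte markers had a read in at most 3 cells of an origin. The part of depth and of these markers in the values below was not tested.

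The respiratory chain sits in the inner mitochondrial membrane. Complex I (NADH dehydrogenase) and complex II (succinate dehydrogenase) pass electrons to ubiquinone, complex III passes them on to cytochrome c and complex IV (cytochrome c oxidase) to oxygen, while complexes I, III and IV pump protons that drive ATP synthesis by complex V. Complex II is made of nuclear products alone, whereas the other complexes also hold subunits translated inside the mitochondrion from transcripts of the mitochondrial chromosome. Most of that chromosome is transcribed as long precursors that are cut at the tRNAs between the genes.

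The median eLC gave a larger share of its reads to the nuclear members of the chain than the median moLC, on both plates. On plate 1, the 97 nuclear members took a lowest, median and highest share of 0.695, 1.13 and 1.84% of a cell's reads in eLCs and 0.446, 0.905 and 1.83% in moLCs. On plate 2, the shares were 0.623, 1.23 and 2.90% in eLCs and 0.639, 0.990 and 3.81% in moLCs. The cells of the origins overlapped widely, and the difference between the medians was smaller than the SD between cells, which was 0.494 percentage points in moLCs and 0.413 in eLCs. The share was above the median of the eLCs in 16 of 67 moLCs on plate 1 and in 8 of 36 on plate 2. A pair of moLCs of plate 2 stood apart from all others, with 3.81 and 3.69% of their reads on nuclear members, and without them the log2 ratio of the summed CPM was -0.31 in place of -0.26.

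The mitochondrial members behaved differently between the plates. Their share of a cell's reads was lowest, median and highest at 0.271, 0.631 and 0.932% in the eLCs of plate 1 and at 0.203, 0.692 and 1.82% in the moLCs of plate 1. On plate 2, it was 0.420, 1.09 and 2.85% in eLCs and 0.505, 0.821 and 1.81% in moLCs. The moLCs thus had the higher median on plate 1 and the lower one on plate 2. The median ratio of mitochondrial to nuclear reads per cell was 0.628 in eLCs and 0.742 in moLCs on plate 1, and 0.880 and 0.860 on plate 2. The filter sets an upper bound on these shares: the highest kept cell had 3.89% of its reads on all mt- genes and the lowest cell left out had 9.97%.

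**Figure D1:**
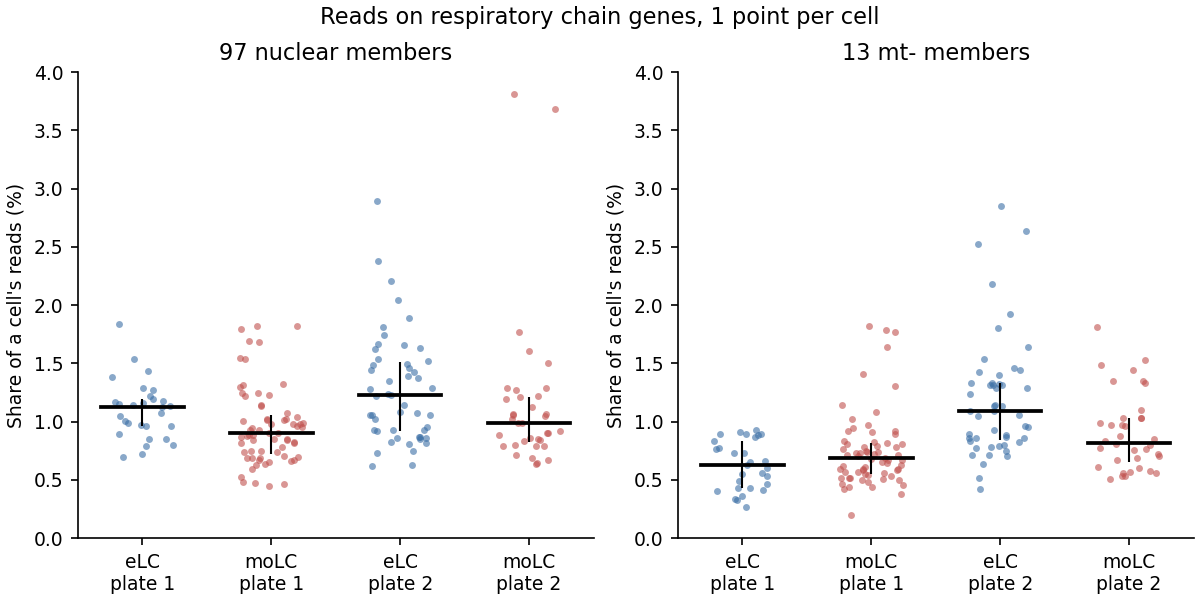
Share of each kept cell's reads (%) on the nuclear members (left) and the mt- members (right), by origin and plate. Each point is a cell, the horizontal bar is the median and the vertical line the quartiles. The nuclear share of eLCs has the higher median on both plates, at 1.13 against 0.905% on plate 1 and 1.23 against 0.990% on plate 2, while the order of the mt- medians turns between plates.

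Levels of different genes were compared per transcript length, as reads per kb of transcript and per 1000000 reads (RPKM) over all 182 kept cells (the length is that of 1 annotated coding transcript per gene). Of the 97 nuclear members, 85 were widely read, which here means a read in 25% or more of the moLCs or of the eLCs, 36 had a read in 90% or more of all kept cells and 7 in every cell. Among the 85, the level per length ran from 0.752 to 739 with a median of 95.9. The highest were Cox4i1 of complex IV (739), Atp5b, the catalytic beta subunit of ATP synthase (681), and Cox6a1 (516). Cox4i1 (ENSMUSG00000031818, GRCm38 chr8:120668222-120674207, plus strand) overlaps exons of Emc8 on the opposite strand. Its lowest, median and highest levels per cell were 81.5, 461 and 1690.3 CPM in moLCs and 185.5, 548 and 2088 CPM in eLCs, so that no cell lacked it.

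In complex I, the small membrane-arm subunit Ndufa1 (322 RPKM) and the accessory subunit Ndufa7 (241) were highest per length, and Ndufab1, the mitochondrial acyl carrier protein, was lowest (13.9) among the complex I members read in 25% or more of all cells. The Ndufaf genes, whose products help to assemble complex I and are not part of it, lay lower, from 3.13 (Ndufaf4) to 28.9 (Ndufaf8), and 4 of the 8 were read in under 25% of the cells of both origins.

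In complex II, the membrane anchor Sdhd (178 RPKM) and the iron-sulfur subunit Sdhb (143) were above the flavoprotein Sdha (64.4), and the other anchor Sdhc was lowest (16). In complex III, the small subunits Uqcr10 (254) and Uqcr11 (239.8) were highest and the core protein Uqcrc2 was lowest (58.9). In complex V, Atp5b and Atp5d, the delta subunit of the central stalk (448), were highest. The c subunit of the membrane ring has 3 genes that encode the same mature protein, and Atp5g3 (348) and Atp5g1 (230.4) were above Atp5g2 (37.2), the lowest of the complex. Atp5g1 and Atp5g2 have near-identical processed copies elsewhere in the genome, so their reads could have been split by the counting.

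**Figure D2:**
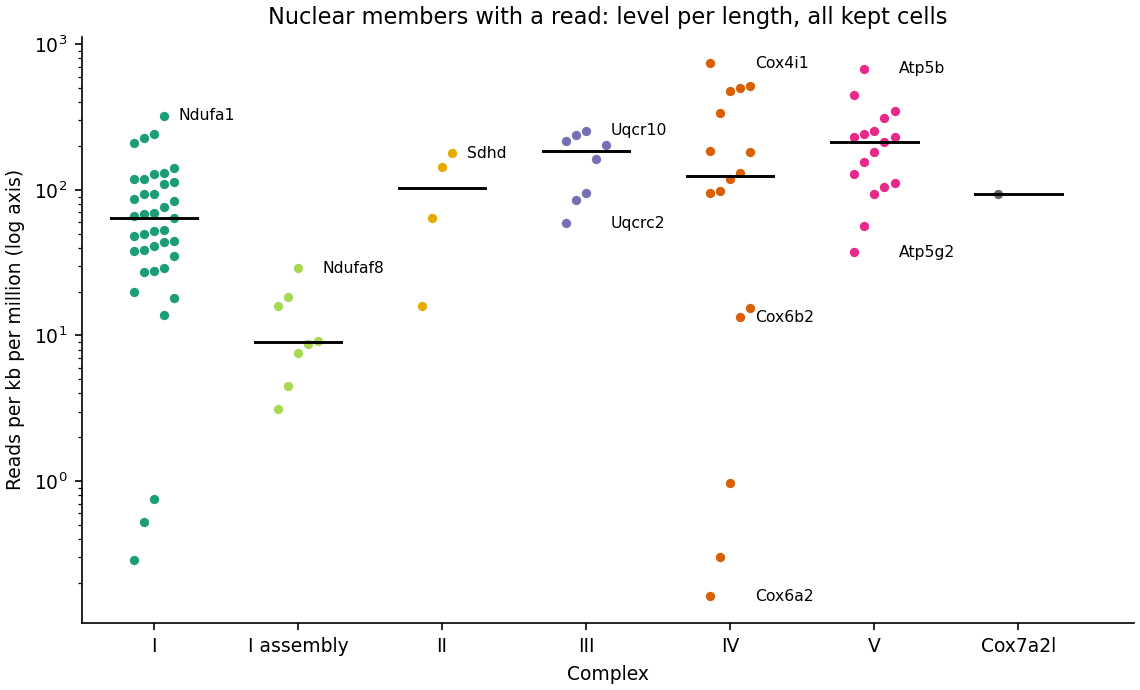
Level of the nuclear members with a read, in RPKM over all kept cells (log axis), by complex. Each point is a gene and the bar is the median of the points shown. The highest members belong to complexes IV and V, led by Cox4i1 at 739, the highest of complex I is Ndufa1 at 322 and of complex III Uqcr10 at 254, and the assembly factors of complex I lie between 3.13 and 28.9.

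The LCs of both origins expressed the ubiquitous form of each complex IV subunit that has tissue-specific forms. Cox4i1, Cox6a1, Cox6b1 and Cox8a were read in every cell, Cox7a2 in 92.2% of the moLCs and 98.7% of the eLCs, and Cox7b in 92.2% of the moLCs and 100% of the eLCs. The heart and muscle form Cox8b and the testis forms Cox7b2 and Cox8c had no read in any kept cell. The same held for Ndufa4l2, a relative of Ndufa4 that is known to be induced by hypoxia. This allows a share of cells with a read of up to 1.65%. Counted in reads, the limit is 0.00579 CPM. That limit takes each read as separate, although a single cell can hold many, so it is too low as a bound on the level. Cox6a2, another heart and muscle form, had 57 reads in 1 eLC and none in moLCs, and Cox4i2, the lung form, was read in 2 moLCs and 1 eLC. Nearly all cells of either origin thus had no read of these minor forms.

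Minor forms of other subunits were read in a fraction of the cells. The muscle form Cox7a1 had a read in 22.3% of the moLCs and 26.6% of the eLCs, at 4.52 CPM in moLCs against 8.13 in eLCs, and its log2 ratio (moLC over eLC) was -0.85 over all cells, 0.17 on plate 1 and -2.14 on plate 2, so that its direction differed between plates. The testis form Cox6b2 (ENSMUSG00000051811, GRCm38 chr7:4751792-4753094, minus strand) had a read in 15.5% of the moLCs and 31.6% of the eLCs, with exact intervals of 9.15 to 24% and 21.6 to 43.1%. Among the cells with a read, the median was 25.4 CPM in moLCs and 34 CPM in eLCs. Per length, Cox6b2 (13.3) and Cox7a1 (15.4) lay far below Cox6b1 (481) and Cox7a2 (184). Ndufa4, now counted as a complex IV subunit, had a read in 83.5% of the moLCs and 94.9% of the eLCs, at 90.6 CPM in moLCs against 137 in eLCs.

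**Figure D3:**
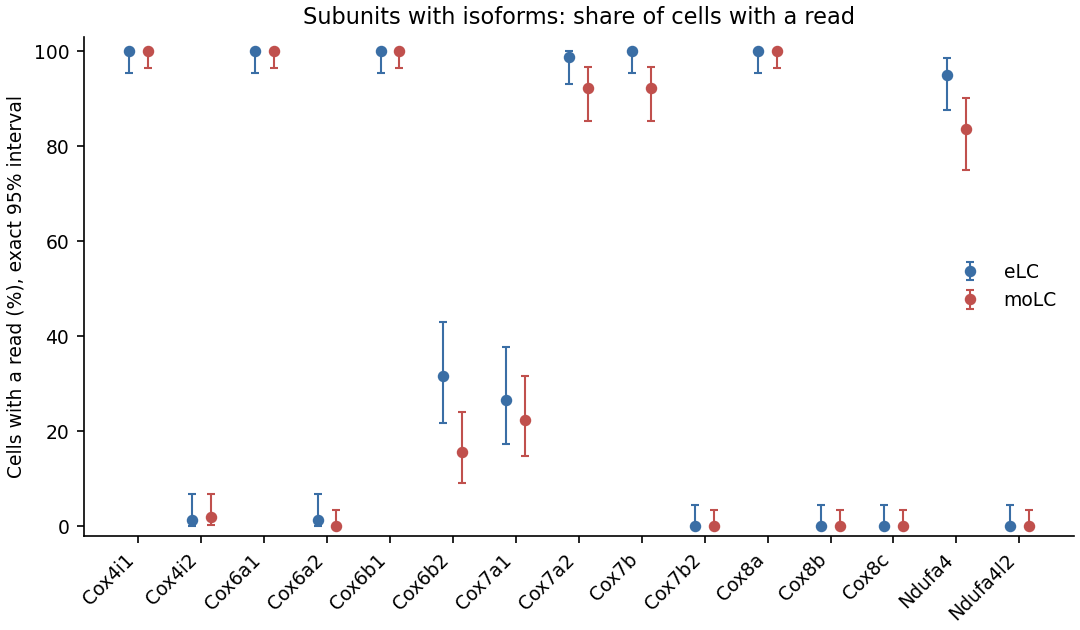
Share of cells with a read (%) for subunits that have more than 1 isoform gene, in eLCs and moLCs, with exact binomial intervals at 95% that cover counting error only. Cox4i1, Cox6a1, Cox6b1 and Cox8a are at 100% in both origins, Cox6b2 and Cox7a1 lie between 15.5 and 31.6%, and the other minor forms are at or near 0.

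The mitochondrial members fell into a high and a low set. Per length, mt-Co1, the catalytic subunit of complex IV, led at 3072 RPKM, followed by cytochrome b of complex III (mt-Cytb, 1333) and the complex I subunits mt-Nd1 (1108), mt-Nd4 (270.5), mt-Nd5 (255), mt-Nd2 (186) and mt-Nd6 (102.7). The other 6 were at 15.7 or below, namely mt-Co3 (15.7), mt-Nd3 (10.9), mt-Co2 (8.22), mt-Atp6 (5.40), mt-Atp8 (2.30) and mt-Nd4l (0.357). Both origins showed the same split. In moLCs the lowest, median and highest mt-Co1 level per cell was 1135, 4162 and 10238 CPM, and in eLCs it was 1579.6, 4792 and 15012 CPM. For mt-Co3, which encodes another subunit of the same catalytic core, the values were 0.797, 10.8 and 74.2 CPM in moLCs and 2.64, 11.2 and 37.3 CPM in eLCs, so that the lowest cell for mt-Co1 was above the highest cell for mt-Co3.

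Most of the low set, 5 of the 6 members, have annotated near-identical nuclear copies, and 1 of the 7 high members does. Transcripts of the members were aligned to all GENCODE M21 transcripts, and a near-identical copy was an alignment of at least 98% identity over at least 50% of the member's transcript. Such copies were found for 6 mt- members, all annotated as unprocessed pseudogenes on 1 stretch of chromosome 1 (GRCm38, minus strand). They were Gm28661 for mt-Co2 (chr1:24614885-24615565, identity 100%), Gm10925 for mt-Atp6 (chr1:24613974-24614651, 100%), Gm28437 for mt-Co3 (chr1:24613189-24613971, 100%), Gm28438 for mt-Nd3 (chr1:24612775-24613119, 99.7%), Gm10222 for mt-Nd4l (chr1:24612407-24612700, 100%) and Gm28439 for mt-Nd4 (chr1:24611535-24612410, 100%). The copies of mt-Co2, mt-Atp6, mt-Co3, mt-Nd3 and mt-Nd4l covered at least 99% of the member, that of mt-Nd4 covered 63.6% and Gm29216 covered 31.3% of mt-Co1. No annotated copy at this threshold was found for mt-Atp8, which lies between mt-Co2 and mt-Atp6 on the mitochondrial chromosome, or for mt-Nd1, mt-Nd2, mt-Nd5, mt-Nd6 and mt-Cytb. The search covered annotated transcripts only, so a copy outside them would not be found. For mt-Atp8, this includes the bases of chromosome 1 between Gm28661 and Gm10925, the copies of its neighbours. The copies held 0.237 to 14.4 CPM themselves. For the fully covered members a read cannot be told apart from one of the copy except at the few differing bases, so their levels here are uncertain. The part of the copies in the low levels was not tested, and how reads that match several places were counted is not given in the sources used here.

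The nearness of the copies can be read from the sequences. Over 345 aligned bases, mt-Nd3 and Gm28438 differed at 1 position (T3C, counted from 1 at the first base of mt-Nd3, the member's base first), and mt-Co1 and Gm29216 differed at 1 position of 483 (A1066T, counted from the first base of mt-Co1). The windows around these positions follow, 5′ to 3′ on the strand of the gene, with the differing base in capitals. They are, in GRCm38, chrM:9459-9491, chr1:24613087-24613119, chrM:6390-6423 and chr1:24616155-24616188, the chr1 windows on the minus strand.
mt-Nd3: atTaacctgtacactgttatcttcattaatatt
Gm28438: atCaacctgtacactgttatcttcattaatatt
mt-Co1: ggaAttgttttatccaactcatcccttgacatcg
Gm29216: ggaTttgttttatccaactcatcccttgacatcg

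**Figure D4:**
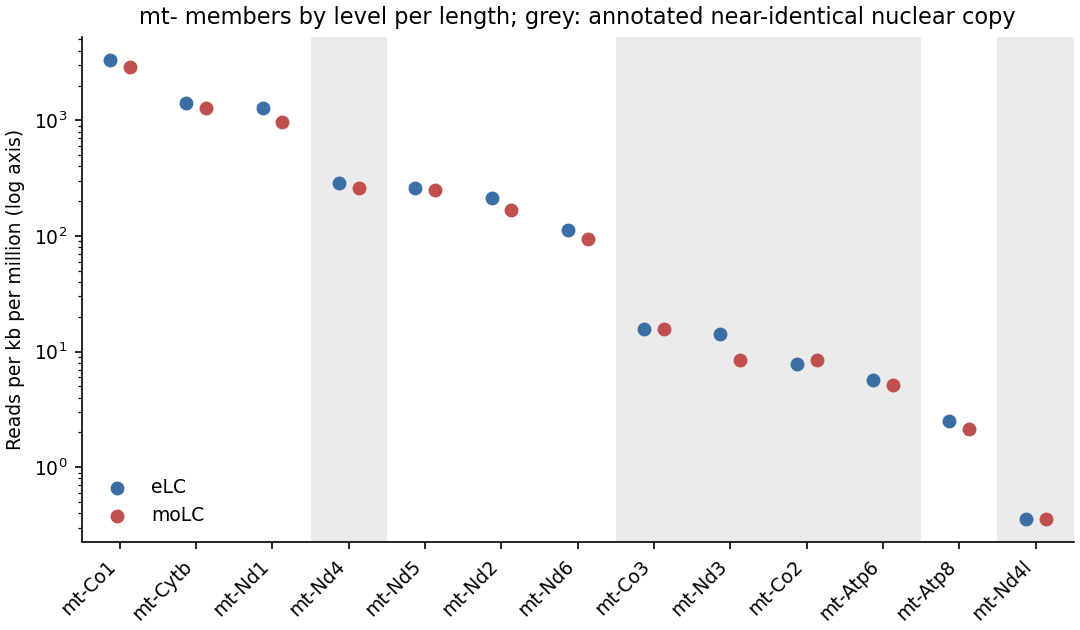
Level of the 13 mt- members in eLCs and moLCs, in RPKM (log axis), ordered by the level over all kept cells. Grey marks members with an annotated near-identical nuclear copy over at least 50% of their transcript. The 7 members on the left are at 102.7 or above over all cells and the 6 on the right at 15.7 or below, and 5 of those 6 are grey.

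Some mitochondrial genes also share bases with each other. mt-Atp8 (GRCm38 chrM:7766-7969) and mt-Atp6 (chrM:7927-8607), the complex V subunits of the mitochondrial genome, are read from 1 transcript in different frames and share 43 bases, shown in capitals in the window chrM:7907-7989 (plus strand).
mt-Atp8 and mt-Atp6: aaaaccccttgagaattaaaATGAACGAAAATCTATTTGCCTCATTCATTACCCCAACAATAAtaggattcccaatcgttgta
A read within the capitals belongs to both genes and can be lost where counting asks for a unique gene. mt-Nd4l and mt-Nd4 share 7 bases on the same strand, and mt-Nd5 overlaps mt-Nd6 on the opposite strand. The level of mt-Atp8 was 0.439 CPM in moLCs against 0.510 in eLCs and that of mt-Nd4l 0.107 CPM in moLCs against 0.106 in eLCs, with a read in 15 moLCs and 11 eLCs.

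Between the origins, the mitochondrial members moved with the plate. Summed over the 13, they reached 7889.5 CPM in moLCs against 9204 in eLCs, a log2 ratio of -0.22 over all cells, 0.18 on plate 1 and -0.33 on plate 2. The direction was thus opposite on the 2 plates, and plate 2, where mitochondrial levels were higher in both origins, held more of the eLCs than of the moLCs. Of the 12 widely read mt- members, 11 were higher in moLCs on plate 1 and 11 were lower in moLCs on plate 2. The same counts over all genes are not given here. Their median log2 ratio was 0.20 on plate 1 and -0.31 on plate 2, against -0.073 and -0.095 for all widely read genes. The mt- members compared in pairs below varied together across cells, so these counts are not of separate observations. mt-Co1 had 4203 CPM in moLCs against 3734 in eLCs on plate 1, and 4896 and 6132 CPM on plate 2. mt-Cytb had 1395 CPM in moLCs against 1166 in eLCs on plate 1, and 1548 and 1945 CPM on plate 2. mt-Nd2 had 158 CPM in moLCs against 122 in eLCs on plate 1, and 202 and 287 CPM on plate 2. Each of these was higher in moLCs on plate 1 and lower in moLCs on plate 2. The exceptions were mt-Nd3, which was lower in moLCs on both plates (log2 ratio -0.73 over all cells, -0.17 on plate 1 and -0.54 on plate 2), and mt-Co2, which was higher in moLCs on both (0.13 over all cells, 0.22 on plate 1 and 0.076 on plate 2), and both are in the low set with a nuclear copy. No mt- member passed the size rule described next.

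Among the nuclear members, small differences ran mostly one way, with lower levels in moLCs. Summed over all 97, they reached 9839.8 CPM in moLCs against 11758 in eLCs, a log2 ratio of -0.26 over all cells, -0.22 on plate 1 and -0.18 on plate 2. Most nuclear members were higher on plate 2 in both origins (67 of 85), and plate 2 held more of the eLCs than of the moLCs. Ratios over all cells, here and for single genes and complexes below, therefore mix origin with plate, and those on each plate do not. Members and all genes were then read by a size rule, which asked that a gene be widely read and pass a given size in the same direction over all cells, on plate 1 and on plate 2. At any size, 53 of 85 nuclear members were lower in moLCs and 2 were higher, against 33.7% and 19.5% of the 6522 widely read genes. The 2 higher members, Cox6c2 and Ndufb4c, are annotated pseudogenes at under 1 CPM. At a log2 ratio of at least 0.32 in size, the small size rule, 15 nuclear members were lower in moLCs, against 11.9% of all genes, and 0 were higher, against 6.47%. At 2-fold, 1 was lower, against 1.21% of all genes, and 0 higher, against 0.813%. The share of members lower by the small rule was 17.6%, and at 2-fold it was 1.18%, near that of all genes. The excess by the small rule depended on the weighting and scaling. With equal weight per cell, 7.06% of members were lower against 10.9% of all genes, with TMM factors 8.24% against 8.30%, and without the 50 genes with the most reads in the totals 10.6% against 9.52%.

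The shift of the group was small beside the spread between cells. The median log2 ratio was -0.31 for the 85 nuclear members and -0.10 for all 6522 genes, with -0.24 against -0.073 on plate 1 and -0.23 against -0.095 on plate 2. For 0 of the 85 did the mean of log2(CPM + 1) differ between origins by more than the mean SD between cells, whose median was 2.34 in moLCs and 2.14 in eLCs. The same count over all genes is not given here, so the 0 does not set the members apart. Genes read in most cells gave the same picture. Among those read in 90% or more of the moLCs or of the eLCs, 4 of 40 nuclear members were lower in moLCs by the small rule, against 4.83% of 974 genes, and 0 higher, against 2.26%, and the median was -0.30 against -0.099. The scaling changed the counts: with TMM factors, which moved all ratios up by 0.102, 7 members were lower by the small rule and 1 (the pseudogene Cox6c2) higher, against 8.3% and 9.06% of all genes, and the median of the nuclear members was -0.21 against 0.00062.

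A read was also found in fewer moLCs than eLCs for most nuclear members. The share of cells with a read was lower in moLCs for 72 of 85 nuclear members (84.7%), beside 71.6% of all genes. The median share was 81.6% of moLCs and 88.6% of eLCs for the members, and 47.6 and 53.2% for all genes. With every cell thinned to 2052512 reads, without the 7 moLCs and 12 eLCs that had fewer, the medians for the members were 81.2 and 88.1%. A moLC held a median of 67 nuclear members with a read and an eLC 72, with ranges of 33 to 87 and 49 to 85. The eLCs also had more genes with a read over the whole table, as given above.

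By complex, the sum over all cells differed most in complex I among the 5 complexes. The nuclear complex I subunits summed to 2186 CPM in moLCs against 2836 in eLCs (log2 ratio -0.38 over all cells, -0.26 on plate 1 and -0.32 on plate 2), and 22 of 37 were lower in moLCs on both plates. Complex II summed to 611 and 634 CPM (-0.054 over all cells, -0.18 on plate 1 and 0.14 on plate 2), with 1 of 4 lower on both plates. Complex III gave -0.23 over all cells, -0.18 on plate 1 and -0.14 on plate 2, with 4 of 8. Complex IV gave -0.27 over all cells, -0.16 on plate 1 and -0.21 on plate 2, with 9 of 14. Complex V gave -0.22 over all cells, -0.25 on plate 1 and -0.14 on plate 2, with 14 of 17. The complexes were not compared with each other by a test, since each origin is 1 sample. By the small size rule, the 15 members lower in moLCs were 9 complex I subunits, 1 assembly factor, 2 members of complex IV and 3 of complex V.

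In complex II, the differences on the plates had opposite signs and nearly cancelled in the sum over all cells. Sdha had 187 CPM in moLCs against 186 in eLCs (log2 ratio 0.011 over all cells, -0.31 on plate 1 and 0.33 on plate 2) and Sdhd had 219 CPM in moLCs against 219.96 in eLCs (-0.0063 over all cells, -0.041 on plate 1 and 0.17 on plate 2), and both changed direction between plates. Sdhb had 156 CPM in moLCs against 174 in eLCs (-0.15 over all cells, -0.096 on plate 1 and -0.18 on plate 2), the one member of the complex that was lower in moLCs on both plates. Sdhc had 48 CPM in moLCs against 54.4 in eLCs (-0.18 over all cells, -0.49 on plate 1 and 0.28 on plate 2).

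**Figure D5:**
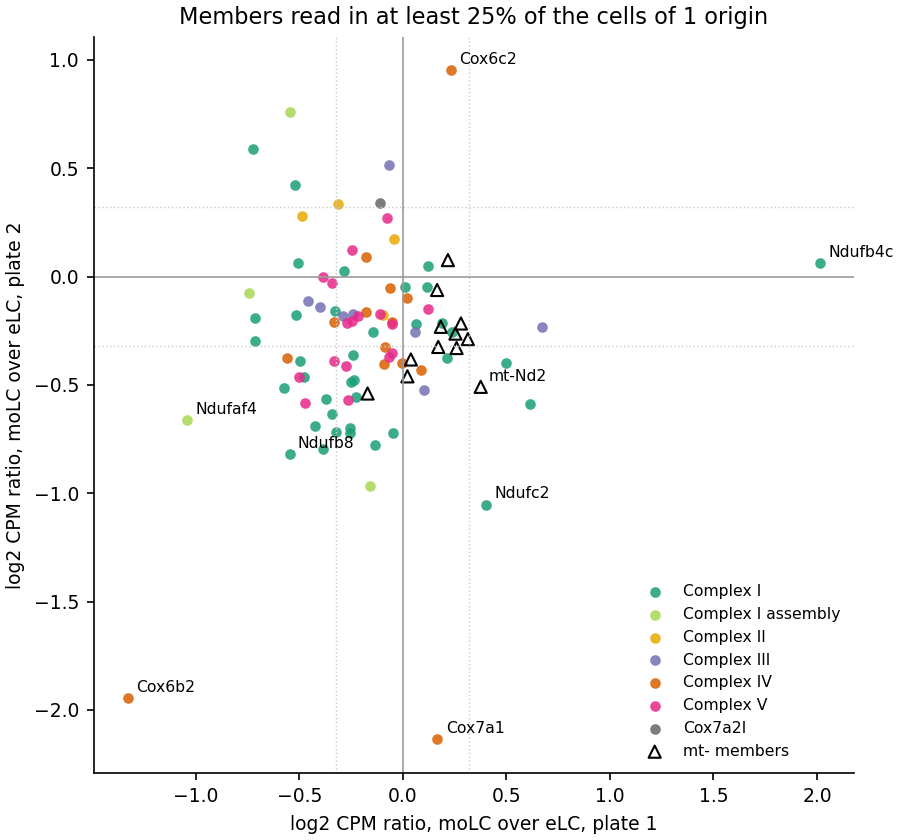
Log2 ratio of summed CPM, moLC over eLC, on plate 1 (horizontal) and plate 2 (vertical) for the widely read members. Points are nuclear members coloured by complex, open triangles are mt- members and dotted lines mark log2 ratios of 0.32 and -0.32. Most nuclear members lie at the lower left (53 of 85 when the ratio over all cells is asked to be below 0 too), and most triangles lie in the lower right.

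Cox6b2 was the nuclear member past the 2-fold rule. It had 4.21 CPM in moLCs against 11.7 in eLCs, and its lowest, median and highest levels per cell were 0, 0 and 48.8 CPM in moLCs and 0, 0 and 145 CPM in eLCs, so most cells of both origins had no read. On plate 1, the moLCs with a read numbered 11 of 67 and the eLCs 9 of 29, and on plate 2 these were 5 of 36 and 16 of 50. Its log2 ratio was -1.48 over all cells, -1.33 on plate 1 and -1.95 on plate 2, with a counting interval of -1.57 to -1.38 over all cells and a range of -1.66 to -1.34 when each cell was left out in turn. When cells were thinned to 2052512 reads, with the shallower ones left out, the ratio was -0.93 (-0.59 on plate 1 and -1.52 on plate 2), which no longer passed the rule.

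After Cox6b2, the most negative ratios over all cells among members lower in moLCs on both plates were those of assembly factors and accessory subunits of complex I. Ndufaf4 had 7.66 CPM in moLCs against 16.5 in eLCs (log2 ratio -1.11 over all cells, -1.04 on plate 1 and -0.66 on plate 2) and had a read in 17.5% of the moLCs and 27.8% of the eLCs. Ndufb8, an accessory subunit of the membrane arm (GRCm38 chr19:44548572-44555440, minus strand), had 57.6 CPM in moLCs against 98.9 in eLCs (-0.78 over all cells, -0.55 on plate 1 and -0.82 on plate 2), and its lowest, median and highest levels per cell were 0, 50.7 and 323 CPM in moLCs and 0, 82 and 382 CPM in eLCs. Its exons overlap the gene model Gm20538 on the same strand, so its reads may have been split. The cells of both origins covered much the same range for Ndufb8. Ndufaf3 had 21.7 CPM in moLCs against 35.2 in eLCs (-0.70 over all cells, -0.16 on plate 1 and -0.97 on plate 2) and overlaps Impdh2 on the opposite strand. Ndufa5, an accessory subunit of the matrix arm, had 19.2 CPM in moLCs against 30.3 in eLCs (-0.66 over all cells, -0.13 on plate 1 and -0.78 on plate 2).

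The 15 members lower in moLCs by the small size rule included core subunits as well as accessory ones. In complex I, they were the core subunits Ndufs7 and Ndufs8, which hold the iron-sulfur clusters nearest to ubiquinone, and the accessory subunits Ndufa7, Ndufa8, Ndufa12, Ndufb6, Ndufb8, Ndufb11 and Ndufs6, beside the assembly factor Ndufaf4. Ndufs7 had 73.5 CPM in moLCs against 114 in eLCs (log2 ratio -0.63 over all cells, -0.42 on plate 1 and -0.69 on plate 2), and its lowest, median and highest levels per cell were 0, 48.3 and 447 CPM in moLCs and 0, 94.8 and 548 CPM in eLCs. Ndufs8 had 42.1 CPM in moLCs against 64.2 in eLCs (-0.61 over all cells, -0.39 on plate 1 and -0.80 on plate 2). The cells of the origins overlapped for Ndufs7, whose highest cell was an eLC. The core subunit Ndufv1, which binds NADH, did not pass the rule and had 108 CPM in moLCs against 112 in eLCs (-0.058 over all cells, -0.52 on plate 1 and 0.42 on plate 2).

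In complex IV, the members past the small rule were Ndufa4 (log2 ratio -0.60 over all cells, -0.56 on plate 1 and -0.37 on plate 2) and Cox6b2. In complex V they were Atp5d, Atp5g2 and Atp5k, the e subunit of the membrane part that takes part in dimers of the enzyme. Atp5k had 17.4 CPM in moLCs against 25.7 in eLCs (-0.56 over all cells, -0.50 on plate 1 and -0.47 on plate 2) and Atp5g2 had 23 CPM in moLCs against 32.9 in eLCs (-0.52 over all cells, -0.33 on plate 1 and -0.39 on plate 2). The other genes of the c subunit differed less, with 123 CPM in moLCs against 157 in eLCs for Atp5g1 (-0.36 over all cells, -0.21 on plate 1 and -0.18 on plate 2) and 239 CPM in moLCs against 263 in eLCs for Atp5g3 (-0.14 over all cells, -0.25 on plate 1 and 0.12 on plate 2). No subunit of complexes II and III passed the rule. In complex III, Uqcr10 had 100.7 CPM in moLCs against 123 in eLCs (-0.29 over all cells, 0.10 on plate 1 and -0.52 on plate 2) and Uqcr11 had 94.9 CPM in moLCs against 123 in eLCs (-0.37 over all cells, -0.29 on plate 1 and -0.18 on plate 2). The counts of members past this rule depend on few cells: leaving out each cell in turn gave 11 to 21, and leaving out the pair of moLCs with the highest nuclear share gave 23.

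The pair of members with the highest levels per length differed less between origins. Cox4i1 had 514 CPM in moLCs against 601 in eLCs (log2 ratio -0.22 over all cells, -0.18 on plate 1 and -0.16 on plate 2), and Atp5b had 1249 CPM in moLCs against 1382 in eLCs (-0.15 over all cells, -0.34 on plate 1 and -0.029 on plate 2). Atp5d, also among the highest, differed more, with 344 CPM in moLCs against 519 in eLCs (-0.59 over all cells, -0.47 on plate 1 and -0.58 on plate 2) and lowest, median and highest levels per cell of 0, 331 and 1506 CPM in moLCs and 40.9, 443 and 2055 CPM in eLCs. Ndufa7 was similar, with 106.7 CPM in moLCs against 155 in eLCs (-0.54 over all cells, -0.50 on plate 1 and -0.39 on plate 2), whereas Ndufa1 had 124 CPM in moLCs against 149.5 in eLCs and ratios of opposite sign on the plates (-0.27 over all cells, 0.061 on plate 1 and -0.22 on plate 2). Uqcrc2 was among the members with the higher level in moLCs over all cells, with 118 CPM in moLCs against 102.6 in eLCs, but its direction differed between plates (0.21 over all cells, -0.069 on plate 1 and 0.52 on plate 2). The same was true of Cox7a2l, a factor that joins complexes III and IV into supercomplexes, with 102.99 CPM in moLCs against 98.7 in eLCs (0.061 over all cells, -0.11 on plate 1 and 0.34 on plate 2). Leaving out each cell in turn changed the sign of the ratio for 7 of the 85 nuclear members, and the same count over all genes is not given here.

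Many nuclear members had higher levels on plate 2 than on plate 1. By the small size rule, asked in both origins, 27 of 85 nuclear members were higher on plate 2, against 11.5% of all genes, and 1 was lower, against 6.93%. At any size, 67 nuclear members and 10 of 12 mt- members were higher on plate 2 in both origins, against 32% of all genes, and 4 and 0 were lower, against 22.2%. Over all cells, the largest plate ratios in 1 direction were those of Ndufaf4 (log2 plate 2 over plate 1 of 1.55 in moLCs and 1.17 in eLCs), Ndufaf2 (1.55 in moLCs and 0.24 in eLCs) and Ndufc2 (0.055 in moLCs and 1.51 in eLCs), together with the pseudogenes Ndufb4c and Cox6c2. In Ndufc2, a complex I subunit of the membrane arm, the level was 41.7 CPM in moLCs against 31.6 in eLCs on plate 1, and 43.4 and 89.99 CPM on plate 2, so that its origin ratio changed sign. The median depth was 2955510 reads in the moLCs and 3133980 in the eLCs of plate 1, and 2934020 and 2625800 on plate 2. Its part in the plate differences was not tested.

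Across the cells of 1 origin and plate, members varied together to some degree. Spearman's rho between the shares on nuclear and on mt- members was 0.334, -0.148, 0.273 and 0.523 in the moLCs of plate 1 (n = 67), the eLCs of plate 1 (n = 29), the moLCs of plate 2 (n = 36) and the eLCs of plate 2 (n = 50), so that the eLCs of plate 1 differed in sign from the rest. In the same order, rho between the nuclear share and the number of genes with a read was 0.307, 0.492, 0.492 and 0.230, and with the total reads it was -0.315, -0.0783, -0.366 and -0.409. The cells share a library plate and these totals, and no p-value was taken. For pairs of the 19 nuclear members without a near-identical copy read in 90% or more of the cells of each group, the median rho was 0.220, 0.171, 0.350 and 0.361. Between these members and the 585 other genes that met the same share it was 0.0249, 0.0246, 0.0541 and 0.0823. For pairs of the 6 mt- members read as widely it was 0.501, 0.429, 0.505 and 0.470, and between nuclear and mt- members 0.0993, -0.0687, 0.230 and 0.262. Pairs of the same complex (0.259, 0.166, 0.348 and 0.347) were close to pairs of different complexes (0.204, 0.173, 0.357 and 0.361).

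Neighbouring pathways were read by the same counts, beside 33.7% of all genes lower and 19.5% higher in moLCs on both plates, and beside all-gene medians of -0.10 over all cells, -0.073 on plate 1 and -0.095 on plate 2. Of 9 electron carriers and dehydrogenases outside the members, 7 were widely read, 4 of them lower and 0 higher in moLCs on both plates, with a median log2 ratio of -0.20 over all cells, -0.053 on plate 1 and -0.23 on plate 2. Cytochrome c (Cycs), which carries electrons from complex III to IV, had 85 CPM in moLCs against 109 in eLCs. Its log2 ratio was -0.047 on plate 1 and -0.36 on plate 2. Its partner cytochrome c1 of complex III (Cyc1) had 96.8 CPM in moLCs against 134 in eLCs (-0.80 on plate 1 and -0.23 on plate 2). Of 37 further assembly factors, 16 were widely read, 7 of them lower and 0 higher in moLCs on both plates, with a median log2 ratio of -0.43 over all cells, 0.016 on plate 1 and -0.56 on plate 2. Uqcc3, an assembly factor of complex III, had 10.2 CPM in moLCs against 21.4 in eLCs (-1.28 on plate 1 and -0.66 on plate 2). Of 13 genes of the TCA cycle, which feeds NADH and succinate to the chain, 12 were widely read, 3 of them lower and 3 higher in moLCs on both plates, with a median log2 ratio of 0.0094 over all cells, 0.00068 on plate 1 and -0.093 on plate 2. Citrate synthase (Cs) had 86.3 CPM in moLCs against 86.2 in eLCs, but its log2 ratio was 0.77 on plate 1 and -0.26 on plate 2. Of 14 genes of glycolysis, 12 were widely read, 3 of them lower and 4 higher in moLCs on both plates, with a median log2 ratio of 0.065 over all cells, -0.051 on plate 1 and 0.15 on plate 2. Gapdh had 934 CPM in moLCs against 856 in eLCs (0.085 on plate 1 and 0.087 on plate 2). Pfkl, a form of phosphofructokinase, had 73.8 CPM in moLCs against 32.6 in eLCs, the largest ratio of the 12. Aldoa (919 CPM in moLCs against 1022 in eLCs) and Ldha (543 against 676) were lower in moLCs on both plates. Summed over the 14 genes, the log2 ratio was -0.012 over all cells, -0.081 on plate 1 and -0.039 on plate 2. These lists are short, and their counts and medians are given as a description.

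Of 12 regulators of respiratory chain genes, 4 were widely read, 2 of them lower and 0 higher in moLCs on both plates, with a median log2 ratio of -0.34 over all cells, -0.59 on plate 1 and -0.27 on plate 2. The coactivators Ppargc1a and Ppargc1b, best known from muscle, brown fat and liver, had no read in any kept cell. Nrf1, a factor that binds promoters of respiratory chain genes, had 45.8 CPM in moLCs against 69.3 in eLCs (log2 ratio -0.91 on plate 1 and -0.63 on plate 2). Gabpa had 24.5 CPM in moLCs against 25.1 in eLCs and Yy1 23.9 CPM in moLCs against 25.5 in eLCs, each with ratios of opposite sign on the plates. Tfb2m, a factor of mitochondrial transcription, had 8.57 CPM in moLCs against 15.3 in eLCs (-0.96 on plate 1 and -0.73 on plate 2). Tfam, which packs and transcribes mitochondrial DNA, had 10.6 CPM in moLCs against 13 in eLCs (-0.24 on plate 1 and -0.16 on plate 2).

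The promoters of the nuclear members carried motifs of these factors more often than promoters at large. RefSeq windows of 300 bases (250 before to 50 after the start, GRCm38.p6) were matched by symbol for 75 of 93 coding nuclear members and gave 80 windows. The NRF1 motif GCGCANGCG, searched on both strands, was in 28.8% of them and in 6.25% of all 32851 windows. The ETS motif CCGGAAG, which GABPA binds, was in 23.8% and 8.86%, and the YY1 motif AANATGGCG in 13.8% and 2.38%. Each motif was counted on its own, and a window can hold more than 1 of them. The median GC content of the windows was 58% for the members and 52.7% for all, and its part in these shares was not tested. Members with the NRF1 motif had a median log2 ratio over all cells of -0.28 (n = 21) and those without it -0.32 (n = 49). With and without the ETS motif, the medians were -0.29 (n = 18) and -0.33 (n = 52). With and without the YY1 motif, they were -0.54 (n = 11) and -0.29 (n = 59). The medians with and without the first pair of motifs were close, and the few members with the YY1 motif had the lower median, a comparison of medians with no test. All of these medians mix origin with plate, and those on each plate were not taken.

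For each motif, the window of the member with the highest level per length that held it and was not already shown for another motif is given as an example of how such promoters are built, 5′ to 3′ on the strand of the gene, with the matches to that motif in capitals. They are Cox6a1 with NRF1 (chr5:115348909-115349208, minus strand), Cox8a with ETS (chr19:7217567-7217866, minus strand, the motif on the other strand) and Atp5b with YY1 (chr10:128083057-128083356, plus strand, the motif on the other strand). The Cox6a1 window also holds an ETS match, left in lower case.
Cox6a1: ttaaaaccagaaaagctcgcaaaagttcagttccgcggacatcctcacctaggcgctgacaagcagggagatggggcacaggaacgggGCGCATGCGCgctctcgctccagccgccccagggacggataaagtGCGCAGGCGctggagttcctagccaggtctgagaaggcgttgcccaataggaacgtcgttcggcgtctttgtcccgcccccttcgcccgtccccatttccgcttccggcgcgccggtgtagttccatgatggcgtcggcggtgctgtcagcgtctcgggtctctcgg
Cox8a: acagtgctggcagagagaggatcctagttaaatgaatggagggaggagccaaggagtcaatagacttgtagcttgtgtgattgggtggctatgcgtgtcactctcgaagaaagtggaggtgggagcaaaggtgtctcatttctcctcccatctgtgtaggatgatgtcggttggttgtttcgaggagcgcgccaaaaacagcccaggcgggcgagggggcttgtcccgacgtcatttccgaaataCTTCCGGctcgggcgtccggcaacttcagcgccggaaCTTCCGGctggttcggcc
Atp5b: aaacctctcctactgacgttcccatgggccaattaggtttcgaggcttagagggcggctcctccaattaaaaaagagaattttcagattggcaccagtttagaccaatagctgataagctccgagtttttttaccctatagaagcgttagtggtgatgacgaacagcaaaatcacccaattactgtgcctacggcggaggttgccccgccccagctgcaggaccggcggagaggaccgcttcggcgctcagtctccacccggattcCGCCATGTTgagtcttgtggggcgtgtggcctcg
A match describes these letters and is not a measured binding site. The high levels per length of these 3 members follow from how the windows were chosen. Cox6a1 had 277 CPM in moLCs against 318 in eLCs (log2 ratio -0.20 over all cells, -0.051 on plate 1 and -0.21 on plate 2) and Cox8a had 264 CPM in moLCs against 288 in eLCs (-0.13 over all cells, -0.18 on plate 1 and 0.093 on plate 2), and both were read in every LC.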

How the data were processed

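The authors made cDNA of each index-sorted cell with a Smart-Seq kit, without molecular identifiers, sequenced it paired-end and aligned it to mm10 with STAR (version, counting tool, strand setting and gene annotation are not given in the sources used here). The deposited values are raw read counts per gene and cell, so PCR copies count as reads. In 8 cells, 9 deposited values in 4 genes were not whole and were rounded, the way expected counts are. No test over single cells was run, since cells are not replicates.

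Counts were summed by origin and by plate and scaled to counts per 1000000 reads (CPM). Ratios are log2 of moLCs over eLCs, and for a group with no read a floor of 3 reads per group was used. Intervals at 95% are exact Poisson (sums), Clopper-Pearson (shares) and binomial (ratios). They and floors cover counting error only. Members and lists were chosen with earlier results of these data known. Named genes were all mt- members, complex II, the isoform list, the 2 highest and the lowest nuclear members per length in each complex, the 5 largest ratios in each direction with 1 direction on both plates, members past the 2-fold rule, members with no read, and the 5 largest plate ratios. Cs, Gapdh, Pfkl, Aldoa, Ldha, Cycs, Cyc1, Uqcc3, Atp5g1, Atp5g3 and Ndufv1 were named after their values were seen. So were the other members past the small size rule, the regulators named and members with a copy. GENCODE M21 (GRCm38) named 45496 of 45661 genes (1 by an older symbol) and gave lengths. Copies were searched with blastn 2.17.0. TMM factors came from edgeR 4.0.16 (R 4.3.3), other values from scipy 1.17.1, numpy 2.4.6 and pandas 2.3.3 (Python 3.11.15). The size rule was also run on simulated counts that had no plate effect and changes of 2-fold or more. Since these settings differ from the data and from the small rule, no conclusion is drawn from that run. The alternatives were other cell filters, each plate, equal weight per cell, other scalings, thinning, other membership, other shares of cells, and each cell left out in turn. Since each well took a single sorted cell, doublets were not called.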

Additional observations from a re-analysis of the deposited data

Results flagged for a closer look

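The values below come from cells left out of the comparisons of origins and from rows that are no members, and lie above the floor of 3 reads. The 3 moLCs of plate 2 left out for over 5% of reads on mt- genes gave 2.49, 0.823 and 16.9% of their reads to the 13 mt- members, and 2.02, 1.246 and 0.885% to the nuclear members, in the order of their share on all mt- genes. They had 572708, 233438 and 920430 reads and 2125, 1184 and 2548 genes with a read.

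Rows named as pseudogenes of members held few reads over the kept cells: 43 on Atp5l-ps1, 181 on Atp5l-ps2, 197 on Atp5l2-ps, 207 on Ndufab1-ps, 22 on Uqcrh-ps1 and 33 on Uqcrh-ps2. The nuclear copies of mt- members on chromosome 1 held more, with 7452 reads on Gm28437 (copy of mt-Co3), 5527 on Gm29216 (mt-Co1), 2386 on Gm10925 (mt-Atp6), 1568 on Gm28661 (mt-Co2), 555 on Gm28439 (mt-Nd4), 175 on Gm10222 (mt-Nd4l) and 123 on Gm28438 (mt-Nd3). On Gm28437 and Gm10925 these were more CPM (14.4 and 4.604) than on the members themselves (12.3 and 3.68).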

How the results depend on the processing

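The summed nuclear log2 ratio of -0.26 stayed negative under every alternative run. It was -0.22 on plate 1, -0.18 on plate 2, -0.25 with all cells, -0.27 and -0.25 with mitochondrial limits of 2.5 and 10%, -0.24 with equal weight per cell, -0.15 with TMM factors, -0.19 without the 50 top genes in the totals and -0.26 without mt- genes in them. The summed mt- ratio of -0.22 turned to 0.18 on plate 1 and was -0.33 on plate 2. It was -0.13 with all cells, -0.13 and -0.22 with the limits of 2.5 and 10%, -0.28 with equal weight, -0.12 with TMM, -0.16 without the 50 top genes, -0.21 after thinning and -0.23 without members that have a copy. Chosen after seeing the data, leaving out the moLC with no Cd207 read gave -0.27 (nuclear), and leaving out the pair of moLCs with the highest nuclear share gave -0.31 (nuclear) and -0.24 (mt-). Leaving out each cell in turn gave -0.29 to -0.24 and -0.24 to -0.20.

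The 15 members lower in moLCs by the small size rule were 6 with equal weight per cell, 7 with TMM, 9 without the 50 top genes in the totals and 23 without the pair of moLCs. As shares of the nuclear members, these were 7.06, 8.24, 10.6 and 27.1%, against 10.9, 8.30, 9.52 and 12.9% of all genes, so the excess over all genes was lost with equal weight and with TMM. Those with equal weight, TMM and without the top genes were all among the 15 (6, 7 and 9 shared). The count ranged from 11 to 21 when each cell was left out. The count higher in moLCs was 0, and 1 with TMM, after thinning and without some single cells (Cox6c2), and 1 with no share asked for and at least 10 reads (Ndufa11b), so 0 to 1 with each cell left out. The 2-fold count of 1 was 0 after thinning and with a share of 50%, for which fewer genes qualify. Of 47 named genes with a ratio, 8 changed sign under some setting other than a plate, and the cause was not tested. No paired analysis was possible because replicate numbers only name cells and no test was made. For members with no read, the number of cells sets the limit on the share, and depth sets the CPM of the floor.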

Other observations

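Mitochondrial transcripts outside the members followed the same plate pattern. The ribosomal RNA genes mt-Rnr1 and mt-Rnr2 summed to 2766 CPM in moLCs against 3278 in eLCs, with a log2 ratio of -0.24 over all cells, 0.34 on plate 1 and -0.25 on plate 2. The 22 mt- tRNA genes summed to 4.29 and 4.23 CPM, with 0.019 over all cells, 0.37 on plate 1 and -0.19 on plate 2.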
